A study of Danio rerio with 6 samples.

Results

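The cytosolic ribosomal protein genes are the genes for the protein parts of the ribosome that translates nuclear messenger RNA. They were chosen here by symbol alone: all rows whose symbol begins with rpl or rps followed by a digit or a p, leaving out the 6 rps6k genes, which encode kinases. This gave 81 of 15292 genes, 48 of the large subunit and 33 of the small subunit. The symbols of the large subunit members include the stalk genes rplp0, rplp1, rplp2 and rplp2l. rpsa, faua and gnb2l1 also encode ribosomal proteins, but their symbols lie outside the rule and they are given apart. None of the 81 genes had the symbol rpl37a, rpl41 or rps27l, so these were not analysed here.

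The study sequenced marrow RNA of 6 adult zebrafish, taken from the kidney. The groups are 3 fish labelled WT, which are grna+/+, and 3 of their siblings that are grna-/-, with both copies of the granulin gene grna mutated. All fish were untreated siblings, and each library holds the marrow of 1 fish. The labels used here give no sex, strain or age beyond adult, and do not describe the mutant allele or say in which cells grna acts. In fish, adult blood cells form in the kidney marrow, and its cells were strained but not sorted here.

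Every ribosome carries a copy of nearly every ribosomal protein, and unassembled ones are degraded, so cells make these proteins in near-equal amounts. Their short messenger RNAs are among the most abundant in growing cells, and many begin with a run of pyrimidines through which the kinase mTOR controls their translation. In humans, loss of a copy of one of several ribosomal protein genes causes Diamond-Blackfan anaemia, in which red cell formation fails, and zebrafish embryos with reduced ribosomal proteins are used to study it.

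The libraries held 11080875 to 14075134 counted reads. Levels are given in TPM, a read density that is corrected for the length of each gene model and set to a fixed sum per library, so that genes can be compared with each other. The mutated gene grna measured 134.7 to 151.2 TPM in the grna+/+ fish and 65.2 to 73.98 TPM in the grna-/- fish, without overlap. Every list of marrow markers held expressed genes in all 6 libraries, though ba1 (erythroid) and npsn (neutrophil) were at 0 TPM in most of them. The summed level of 18 erythroid markers was 21676 to 51123 TPM in grna+/+ and 81640 to 94465 TPM in grna-/-, and that of 15 neutrophil markers 55318 to 61536 and 27804 to 50234 TPM. Most of the erythroid sum was the globin genes hbaa1 and ba1l, averaging 18342 and 18811 TPM in grna+/+ and 41602 and 41940 TPM in grna-/-. The largest part of the neutrophil sum was lyz, averaging 31281 TPM in grna+/+ and 25019 TPM in grna-/-, where the genotypes overlapped. The summed level of the 15 progenitor and cycling cell markers was 1356 to 2086 and 2072 to 2373 TPM, that of 11 macrophage markers 3426 to 4240 and 3922 to 4873 TPM. The macrophage sum hides opposite directions. Its highest genes, cd74a (means 1143 and 1739 TPM) and cd74b (1088 and 1445 TPM), lay higher in grna-/- without overlap. By contrast, apoeb (318.5 and 15.44 TPM), ctss2.1 (417.1 and 277.5 TPM) and mpeg1.2 (74.74 and 52.87 TPM) lay lower without overlap. The genotypes overlapped in the remaining macrophage markers. The B cell (4 genes), T and cytotoxic cell (9 genes), thrombocyte (6 genes) and kidney and stroma (15 genes) markers summed to at most 2620 TPM in any library, and no marker of any of these 8 lists was at 0 throughout.

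Ribosomal protein messenger RNA made up 26.22% to 28.54% of TPM in every marrow. The 81 genes took 28.15%, 28.54% and 28.48% in the 3 grna+/+ fish, by replicate number, and 26.71%, 27.69% and 26.22% in the 3 grna-/- fish. All 3 grna-/- marrows lay below all 3 grna+/+ marrows. The means were 28.39 ± 0.209% and 26.87 ± 0.747% (SD, n = 3 each), a difference of -1.52 percentage points. An exact two-sided permutation test gave p = 0.1, the smallest that 3 against 3 can give. In a bulk tissue, fewer cells of a type and less RNA per cell cannot be told apart. The summed erythroid and neutrophil markers given above also differed between the genotypes without overlap, though the erythroid sum is mostly globin. The part of cell make-up in the lower ribosomal protein share was not tested.

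TPM sums to the same total in each library, so a share depends on the other genes. The globin genes, which encode the haemoglobin chains of red cells, took 4.154%, 2.061% and 4.937% of TPM in grna+/+ and 7.918%, 9.121% and 8.031% in grna-/-. With the globin rows left out, the ribosomal protein genes took 29.37%, 29.14% and 29.96% in grna+/+ and 29.01%, 30.47% and 28.51% in grna-/-. The genotypes then overlapped, with means of 29.49 ± 0.422% and 29.33 ± 1.02% (SD, n = 3 each) and an exact two-sided permutation p of 0.8. The share of the reads recovered from the TPM values is not corrected for gene length. It was 12.76% to 13.38% in grna+/+ and 12.34% to 13.18% in grna-/- (exact permutation p = 0.3).

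**Figure D1:**
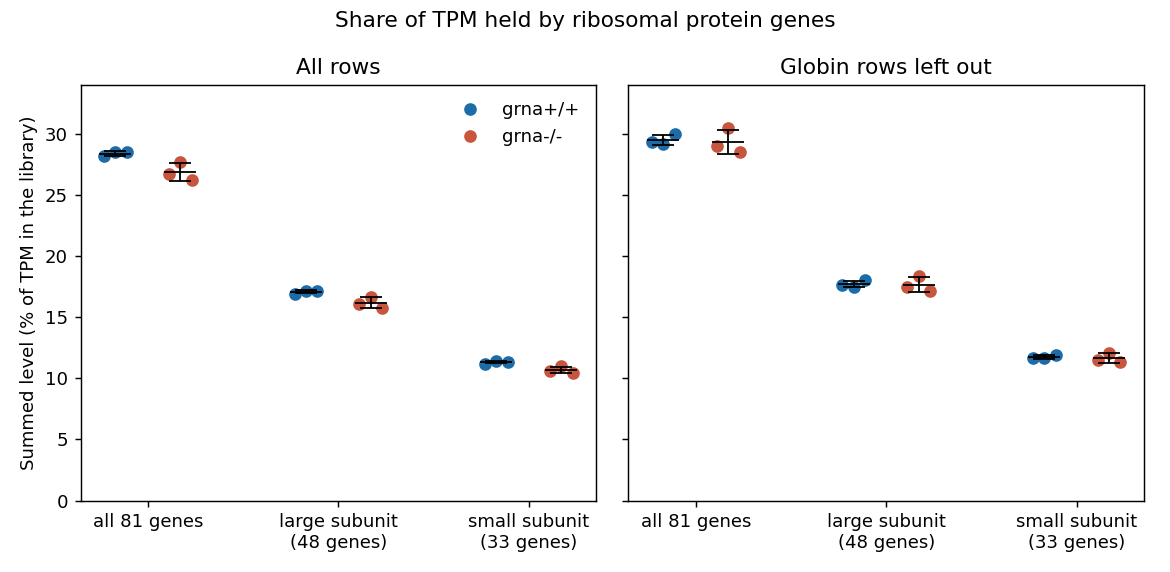
Summed level of the ribosomal protein genes as a percentage of all TPM in a library (left) and of TPM without the globin rows (right), for all 81 genes and for each subunit. Points are the 3 fish of each genotype, bars the mean and SD; the grna-/- points lie below the grna+/+ points on the left and overlap them on the right.

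The proportion of the subunits varied little between fish. The 48 large subunit genes took 17.08 ± 0.121% of TPM in grna+/+ and 16.19 ± 0.47% in grna-/-, and the 33 small subunit genes 11.31 ± 0.089% and 10.68 ± 0.279% (SD, n = 3 each). The ratio of the summed large to the summed small subunit level does not depend on the scaling of a library. It was 1.51, 1.506 and 1.512 in grna+/+ and 1.522, 1.518 and 1.507 in grna-/-. The genotypes overlapped. The ratio differed by 0.00644, with SDs of 0.00294 among grna+/+ and 0.00796 among grna-/- fish, and the difference did not pass the test (exact two-sided permutation p = 0.3, where 3 against 3 cannot go below 0.1).

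Most members were at similar levels. Of the 81 genes, 70 were among the 100 genes of highest mean TPM in the table and 78 among the highest 200. The median level was 3425 TPM, with 3552 TPM for the large and 3348 TPM for the small subunit, and 65 members averaged between 2000 and 5000 TPM. Leaving out rpl7l1 and rps8b, the levels ran from 585.4 TPM to 14.2 times that level. The order of the members was nearly the same in both genotypes (Spearman correlation 0.994 between the genotype means, across 81 genes that share libraries).

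**Figure D2:**
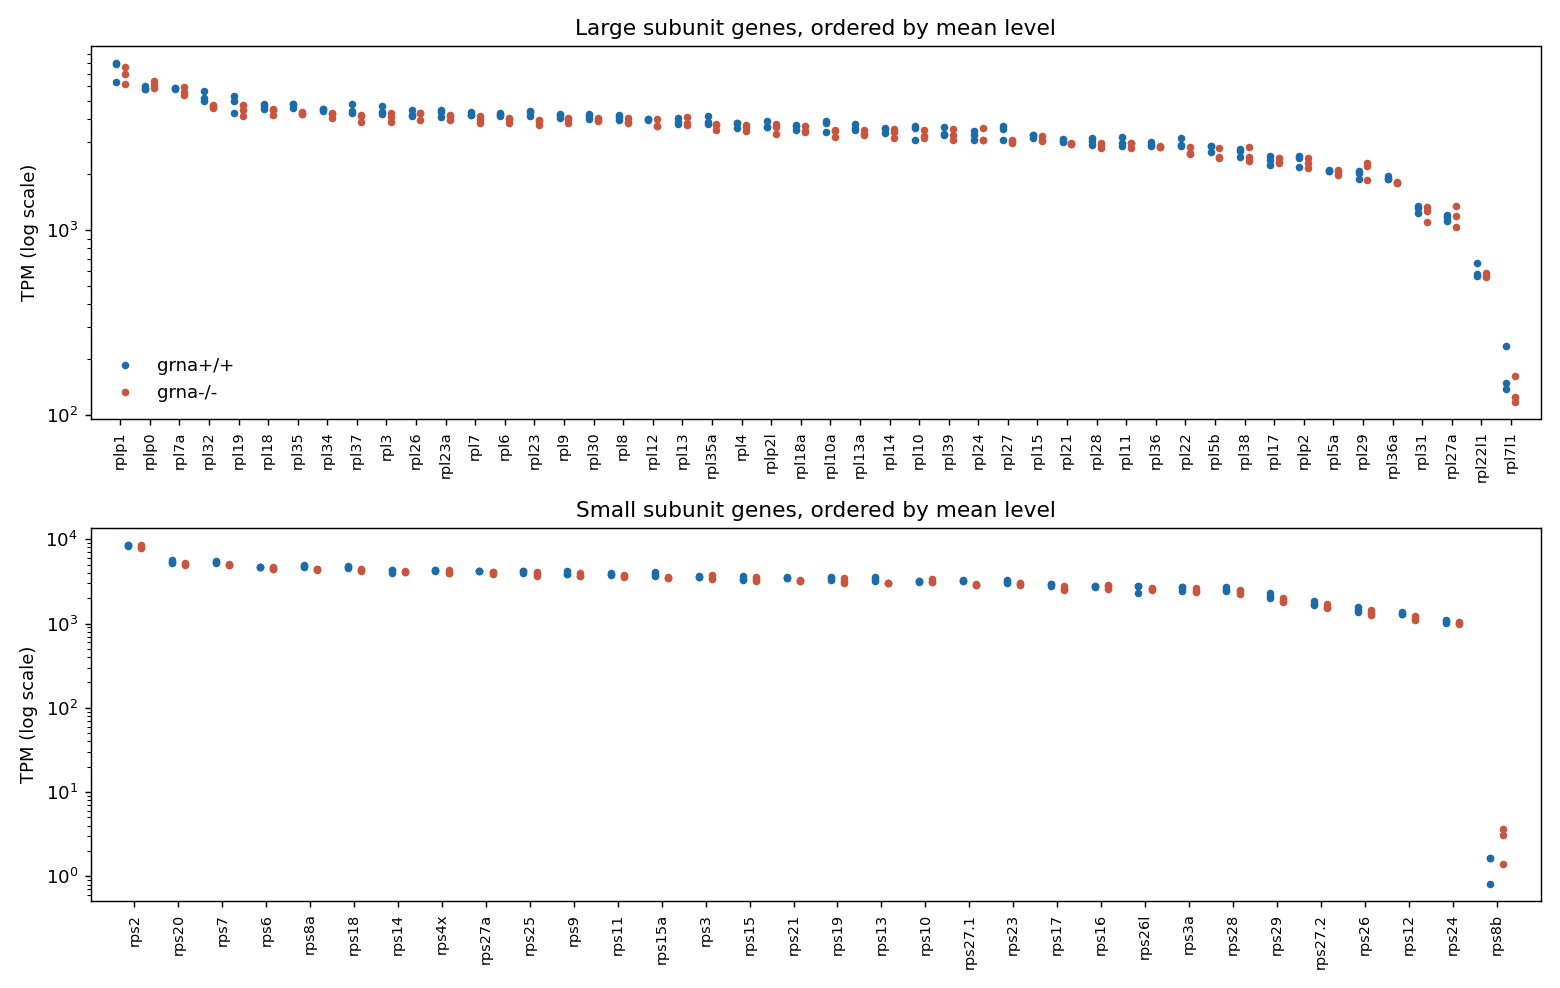
Level of the ribosomal protein genes in TPM, on a log axis, all but 1 shown, with 1 point per fish. Genes are ordered by mean level within the large (top) and small (bottom) subunit; most lie between 2000 and 5000 TPM, and rps8b lies far below all others.

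The most abundant member was rps2, which encodes a small subunit protein near the entry of the messenger RNA channel. It measured 8504, 8330 and 8512 TPM in the grna+/+ fish and 8165, 8450 and 7966 TPM in the grna-/- fish. After it in the small subunit came rps20, a protein of the subunit's head, at 5407 ± 178 and 5100 ± 124 TPM, and rps7, at 5397 ± 147 and 4988 ± 102 TPM (SD, n = 3 each). rps6, the substrate of the S6 kinases, was the fourth small subunit gene in this order, at 4674 ± 25.3 and 4510 ± 201 TPM. In the large subunit the highest genes were rplp1, rplp0, rpl7a and rpl32. rplp0 and rplp1 encode the base and an arm of the stalk that recruits elongation factors.

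rplp1 measured 7907, 6362 and 8047 TPM in the grna+/+ fish and 6183, 7665 and 6974 TPM in the grna-/- fish. It varied more between fish of 1 genotype than between the genotypes. rplp0 measured 5818, 5812 and 6059 TPM in the grna+/+ fish and 6082, 6409 and 5854 TPM in the grna-/- fish, and was among the 5 members with a fold change above 0. rpl7a was at 5864 ± 29.5 and 5649 ± 274 TPM and rpl32 at 5296 ± 327 and 4683 ± 103 TPM (SD, n = 3 each).

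At the low end, rps24 averaged 1063 ± 38.3 and 1019 ± 21.8 TPM and rpl22l1, a second copy of rpl22, 602 ± 51.8 and 568.9 ± 11.9 TPM. rpl7l1, a gene related to rpl7, measured 137.2, 236.2 and 147.7 TPM in the grna+/+ fish and 124.1, 117.6 and 161.2 TPM in the grna-/- fish. The high value in grna+/+ came from replicate 2, and the genotypes overlapped. rps8b was lowest and measured 1.649, 1.673 and 0.8112 TPM in the grna+/+ fish and 3.127, 3.673 and 1.417 TPM in the grna-/- fish. It rested on 5 to 24 reads per library.

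TPM corrects for the length of the gene model, and the lengths implied by the values differed 7.54-fold between members. rps24 had the longest implied length, 3.11 times the median of the members, and its reads, 14440 to 19231 per library, exceeded those of rps10 (7155 to 10022), which stood higher in TPM. Across the 81 members, log length and log TPM were hardly related (Pearson r = -0.07, a description). The rank of a single gene such as rps24 therefore depends on the gene model used by the authors.

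The members varied little between fish. The median coefficient of variation (SD divided by the mean, in TPM) was 3.71% among grna+/+ fish and 4.29% among grna-/- fish. For the other 61 genes averaging above 1000 TPM it was 13.2% and 12.2%. In both genotypes the coefficient was below 10% for 73 of the 81 ribosomal protein genes and for 19 of those 61 genes. Above that bound in both genotypes were rps8b, at 35.6% in grna+/+ and 43% in grna-/-, rpl7l1 (31.3% and 17.5%) and rplp1 (12.6% and 10.7%). Members above it in 1 genotype included rpl19, at 11% in grna+/+ and 6.66% in grna-/-, rpl27a and rpl29.

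No ribosomal protein gene changed by the test across all genes. limma on log2(TPM + 1) called 1.15% of 10750 tested genes at an adjusted p below 0.05, and 0 of the 81 members. All 81 passed the filter, a mean of 1 TPM or more. None had an unadjusted p below 0.05, against 17.6% of all tested genes, and the smallest adjusted p was 0.299, for rpl32. The test draws each gene's variance toward that of genes of like level, and the other high genes varied more between fish. It can therefore miss small changes of the members. limma-voom on recovered reads also called 0. With the replicate number as a block, limma called 0 members and 2.52% of all tested genes. Library weights were the only setting of those run that called members, 7 of them, and they called 22.8% of all tested genes. The fold changes were small. Of the 81 log2 values 76 were negative and 5 positive, but 43 were negative without globin rows and 40 after quantile normalization. Their median was -0.08, beside 0.07 over all tested genes. It was -0.01 without globin rows, 0.00 after quantile normalization and -0.15 when libraries were rescaled by the median of ratios, and the medians over all tested genes were then 0.13, 0.02 and 0.00.

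**Figure D3:**
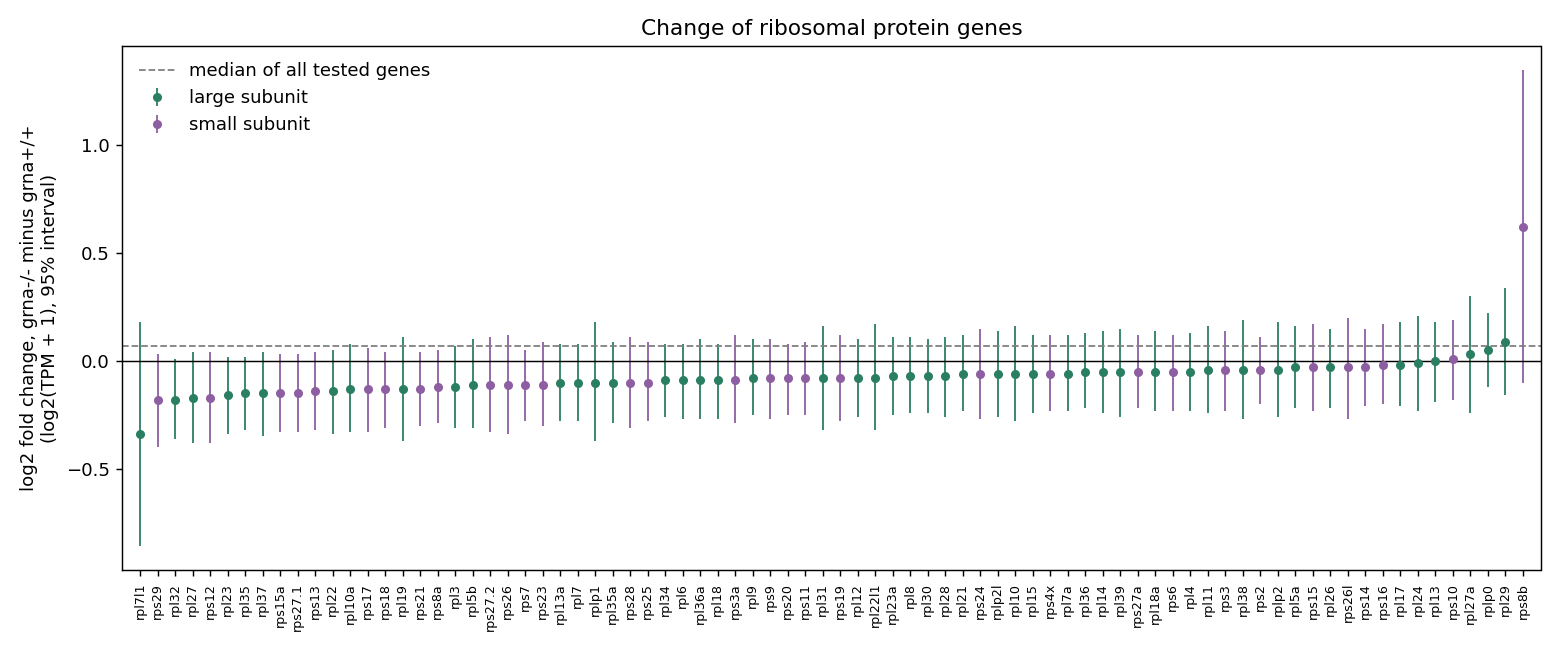
Log2 fold change of the ribosomal protein genes, all but 1 shown, grna-/- minus grna+/+, on the log2(TPM + 1) scale, with the 95% interval from limma. Colours mark the subunit and the dashed line the median of all 10750 tested genes; every interval shown includes 0.

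The intervals give a range for the change of each gene taken singly, with the TPM scaling taken as given. They do not cover the shifts under other scalings given above. For the 79 members other than rpl7l1 and rps8b, the log2 fold changes ran from -0.18 to 0.09, and the 95% intervals reached from -0.40 (rps29) to 0.34 (rpl29). On mean TPM, the grna-/- level of these genes was 0.879 to 1.07 times the grna+/+ level. The intervals were wider for rpl7l1 (-0.86 to 0.18) and rps8b (-0.10 to 1.35).

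In 25 members, 30.9% of the 81, the highest grna-/- value was lower than the lowest grna+/+ value, against 10.6% of all tested genes. No member had the reverse order. In either order, 24.6% of all tested genes did not overlap. The members share each library's scaling, so these are not separate observations. With globin rows left out, 4 members did not overlap, again with grna-/- lower, as did 7.97% of the genes tested without those rows.

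Among large subunit genes the most negative fold changes were those of rpl7l1, rpl32, rpl27 and rpl23. rpl32 measured 5014, 5655 and 5221 TPM in the grna+/+ fish and 4568, 4767 and 4713 TPM in the grna-/- fish. The genotypes did not overlap, with a log2 fold change of -0.18 (SE 0.0797). rpl27, a Diamond-Blackfan gene in humans, averaged 3422 ± 307 and 3032 ± 49 TPM (limma adjusted p = 0.363). rpl23, a protein of the face between the subunits that can also bind Mdm2, averaged 4305 ± 160 and 3847 ± 129 TPM (adjusted p = 0.32). At the other end, rpl29, at 1999 ± 107 and 2134 ± 235 TPM, rplp0 and rpl27a had fold changes above 0 (limma adjusted p = 0.681, 0.735 and 0.906).

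Among small subunit genes the most negative were rps29, rps12, rps27.1 and rps15a. rps29, a zinc-binding protein of the subunit's head, measured 1985, 2319 and 2148 TPM in the grna+/+ fish and 1987, 1863 and 1821 TPM in the grna-/- fish. Replicate 1 of grna+/+ lay just under replicate 1 of grna-/-, so the genotypes overlapped (limma adjusted p = 0.346). rps12, also of the head, averaged 1309 ± 38.6 and 1164 ± 65 TPM, rps15a 3869 ± 168 and 3490 ± 37.9 TPM, and in both the genotypes did not overlap (adjusted p = 0.365 and 0.35 from limma). rps27.1 averaged 3224 ± 86 and 2907 ± 73.6 TPM, also without overlap (limma adjusted p = 0.349). rps10 and rps8b alone had fold changes above 0. rps10, another head protein, averaged 3178 ± 30.8 and 3195 ± 184 TPM.

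The make-up of the pool was also compared within libraries, with each gene as a share of the summed ribosomal protein level. On that measure 5 members lay higher in grna-/- without overlap, namely rps2, rps10, rps16, rps27a and rplp0. rps27.1 and rps21 lay lower. rps27a encodes a ribosomal protein fused to ubiquitin. Over all tested genes, each divided by the same sum, 18.6% lay higher and 7.08% lower without overlap. The choice of these 7 genes followed from their values, and no test was made of this share.

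The genes mutated in Diamond-Blackfan anaemia lay in the range of the other members. Of 22 such zebrafish genes, none was called, against 1.15% of all tested genes. Of their log2 fold changes 21 were negative, beside 76 of the 81 members and 42.5% of all tested genes. The median of the 22 was -0.10 beside -0.08 for all members. The smallest p in this list belonged to rpl35, with 4582, 4815 and 4823 TPM in the grna+/+ fish and 4229, 4239 and 4373 TPM in the grna-/- fish (limma adjusted p = 0.337). The genotypes did not overlap. rpl5a, rpl5b and rpl11, whose products join the 5S ribosomal RNA and can bind Mdm2, the inhibitor of p53, had log2 fold changes of -0.03, -0.11 and -0.04. Of the 9 genes around the exit of the peptide tunnel, none was called, against the same 1.15% of all tested genes, and the median was -0.08.

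Among the members 7 pairs have symbols that name them as related copies. In each pair the copies lie on different chromosomes, from a RefSeq gene table of assembly GRCz12tu in which all 81 members were found. The 81 genes lie on all 25 chromosomes of that table, and only rplp2 and rps26l neighbour each other among its protein-coding genes. Reads may be split between copies of similar sequence, so the balance within a pair is uncertain.

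In 4 pairs both copies were abundant. rpl5a gave 42.2%, 42.2% and 44.6% of the TPM of its pair with rpl5b in grna+/+ and 44.6%, 43.2% and 45.2% in grna-/-. rplp2 gave 39 ± 1.33% of its pair with rplp2l in grna+/+ and 39.3 ± 1.11% in grna-/-. rps26, whose product lines the exit of the messenger RNA channel, gave 35.8 ± 1.46% and 34.5 ± 0.95% beside rps26l. rps27.1 gave 65 ± 0.681% and 64.3 ± 0.776% beside rps27.2 (SD, n = 3 each). Within each pair the share varied by a few percentage points across the 6 fish, and the genotypes overlapped in all 4 pairs.

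The other 3 pairs were lopsided. rpl22 stood 4.82-fold above rpl22l1 on mean TPM, and gave 83.1 ± 0.551% of the pair in grna+/+ and 82.5 ± 0.887% in grna-/-. rpl7 stood 26.7-fold above rpl7l1 and rps8a 2231-fold above rps8b. rps8a averaged 4779 ± 136 and 4404 ± 72.6 TPM. The log2 ratio of rps8a to rps8b, with 1 added to each value, differed by -0.74 (grna-/- minus grna+/+), with SDs of 0.33 and 0.48 among the 3 grna+/+ and the 3 grna-/- fish. In all 7 pairs the log2 ratios of the genotypes overlapped, and none passed the test. The smallest exact two-sided permutation p was 0.2, for rps8a and rps8b, and 0.42 after Benjamini-Hochberg adjustment over 7 pairs. With 3 against 3 the test cannot go below 0.1.

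**Figure D4:**
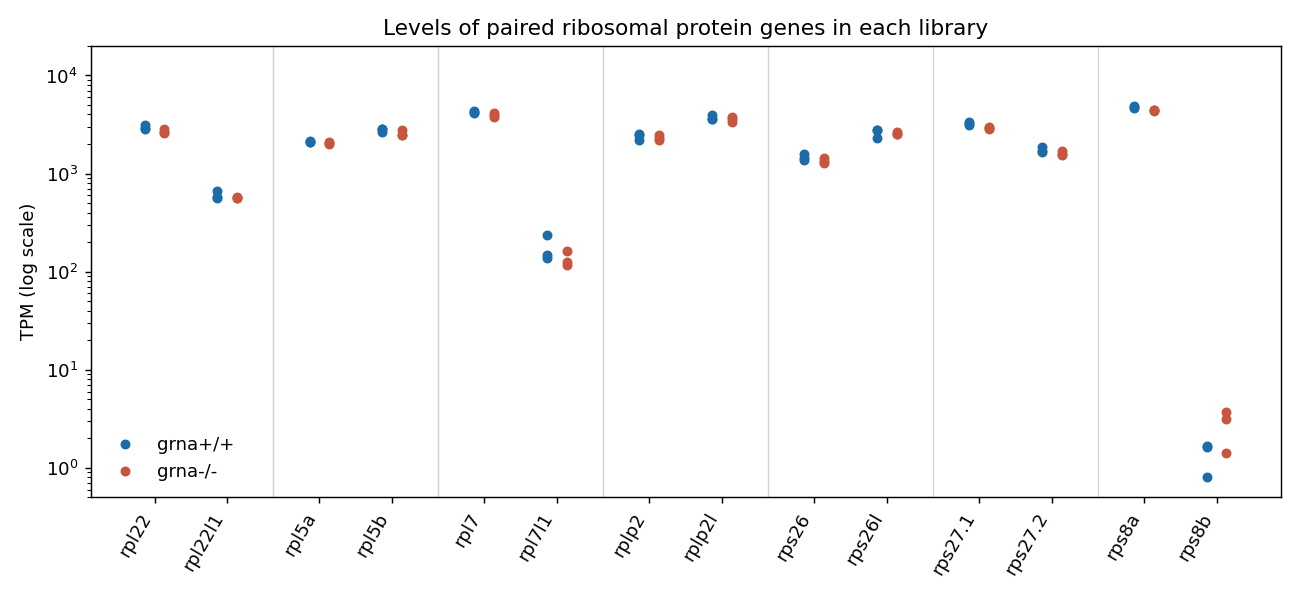
Levels of the 7 pairs of ribosomal protein genes in TPM on a log axis, 1 point per fish. Both copies are abundant in rpl5a and rpl5b, rplp2 and rplp2l, rps26 and rps26l, and rps27.1 and rps27.2. In contrast, rps8b lies at 0.8112 to 3.673 TPM against 4321 to 4897 TPM for rps8a.

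The median over the 67 members without a pair was 3564 TPM. Summed over the copies, the 4 pairs with both copies abundant reached 4012 TPM (rps26 and rps26l) to 6001 TPM (rplp2 and rplp2l). Taken singly, all of these copies but rplp2l, at 3652 TPM, lay below that median, with rps26 lowest at 1410 TPM over the 6 libraries. The stalk holds a pair of P1 and a pair of P2 proteins in each ribosome but only a single P0. The P2 genes together and rplp1 stood at 6001 and 7190 TPM, and rplp0 at 6006 TPM, as means over the 6 libraries.

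Ribosomal protein genes outside the symbol rule lay in the same range. rpsa, a protein near the messenger RNA exit, measured 5635, 5346 and 5581 TPM in the grna+/+ fish and 5609, 6150 and 5556 TPM in the grna-/- fish. gnb2l1, the scaffold RACK1, averaged 3633 ± 123 and 3599 ± 309 TPM (SD, n = 3 each). Neither was called by limma, and their adjusted p were 0.688 and 0.939. faua, which fuses a small subunit protein to a ubiquitin-like one, averaged 2356 ± 27.3 and 2245 ± 132 TPM. Its lower copy faub was at 47.02 to 54.72 TPM in all 6 libraries. Both were looked up with the values of the others known.

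Genes that make, feed or regulate ribosomes were examined in lists. No gene of these lists was called by limma, which called 1.15% of all tested genes. Nor was any called by limma-voom on recovered reads, which called 72 of the 10750 tested genes. A list of translation factors and other genes of the class with pyrimidine-tract messenger RNAs had 22 tested members, whose tracts were not examined here. Of these, none had an unadjusted p below 0.05, against 17.6% of all tested genes, and 15 log2 fold changes were negative. Their median was -0.07, beside -0.08 for the ribosomal protein genes, and 0.00 without globin rows and 0.03 after quantile normalization. It was -0.14 with the median of ratios and -0.03 without grna+/+ replicate 2. The genes of smallest p were nap1l4a, pabpc1b, tpt1 and naca. nap1l4a, of a family of histone chaperones, averaged 88.73 ± 28 and 58.46 ± 16.5 TPM (limma adjusted p = 0.314). pabpc1b, which binds poly(A) tails, had a positive log2 fold change of 0.31, at 37.49 ± 2.79 and 47.1 ± 6.63 TPM (limma adjusted p = 0.345). In both genes the genotypes overlapped. tpt1, a translationally controlled growth protein, measured 6203, 5927 and 6124 TPM in the grna+/+ fish and 5524, 5847 and 5114 TPM in the grna-/- fish (limma adjusted p = 0.361). naca, a chaperone of nascent chains at the ribosome, averaged 890.7 ± 13.8 and 809.6 ± 14.1 TPM without overlap (adjusted p = 0.441).

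Of the 68 tested ribosome biogenesis genes 58 had negative log2 fold changes, against 42.5% of all tested genes. An unadjusted p below 0.05 was found for 1 of them, against 17.6% of all tested genes. Their median was -0.17, and lay between -0.24 and -0.10 under the other scalings. Their summed level was 4671 to 6579 TPM in grna+/+ and 4283 to 5419 TPM in grna-/-. The median was -0.04 without grna+/+ replicate 2, -0.09 without grna-/- replicate 2, -0.28 without grna+/+ replicate 1 and -0.27 without grna-/- replicate 3. rrs1, an assembly factor of the large subunit, measured 93.67, 203.4 and 121.1 TPM in the grna+/+ fish and 78.29, 77.04 and 82.27 TPM in the grna-/- fish (limma adjusted p = 0.219). The 18 tested genes of RNA polymerases I and III, which transcribe ribosomal RNA, had a median of -0.14. It was -0.08 without globin rows, -0.21 with the median of ratios and 0.01 with library weights. With a library left out it lay between -0.22, lacking grna+/+ replicate 3, and -0.02, lacking grna+/+ replicate 2. None of these 18 genes had an unadjusted p below 0.05, against 17.6% of all tested genes.

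Of 27 tested initiation factors, 21 had negative log2 fold changes, against 42.5% of all tested genes. For 3 the unadjusted p was below 0.05, against 17.6% of all tested genes. The median was -0.10, but -0.03 without globin rows, -0.02 after quantile normalization and -0.17 with the median of ratios. With a library left out it lay between -0.16, lacking grna+/+ replicate 1 or 3, and -0.07, lacking grna+/+ replicate 2. The cap-binding gene eif4e1c averaged 108.5 ± 25.5 and 70.28 ± 2.94 TPM and eif1b, which helps to select the start codon, 566.4 ± 116 and 407.5 ± 7.23 TPM. In both genes the genotypes did not overlap (limma adjusted p = 0.178 and 0.201). The growth control list, with mTOR and MYC genes, had 19 tested members, 6 of them with an unadjusted p below 0.05, against 17.6% of all tested genes. Its median of -0.09 depended on the setting. It was -0.02 without globin rows, -0.16 with the median of ratios, 0.06 with library weights and 0.04 without grna+/+ replicate 1. myca, an activator of ribosome genes, measured 77.87, 134.5 and 98.77 TPM in the grna+/+ fish and 40.89, 46.48 and 74.49 TPM in the grna-/- fish (limma adjusted p = 0.153). deptor, an inhibitor of mTOR, had higher values in the grna-/- fish, at 20.6 ± 2.56 and 28.64 ± 1.7 TPM (adjusted p = 0.214).

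Targets of p53, which is activated when free ribosomal proteins bind Mdm2, were split in direction. Of 16 tested, 8 were above 0 and 8 below, and 6 had an unadjusted p below 0.05, against 17.6% of all tested genes. The median was 0.01, and lay between -0.08 and 0.07 when a library was left out. It was 0.08 without globin rows and -0.06 with the median of ratios. mdm2, both a target and the inhibitor of p53, measured 39.94, 28.83 and 33 TPM in the grna+/+ fish and 62.41, 53.27 and 60.04 TPM in the grna-/- fish. All 3 grna-/- values lay above, but the gene did not pass (log2 fold change 0.78, SE 0.167, limma adjusted p = 0.0762). tp53inp1 was likewise higher without overlap, at 25.76 ± 1.2 and 46.31 ± 9.93 TPM (adjusted p = 0.0881). baxb and gadd45aa lay lower without overlap, with log2 fold changes of -0.97 and -0.72 (limma adjusted p = 0.172 and 0.218).

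**Figure D5:**
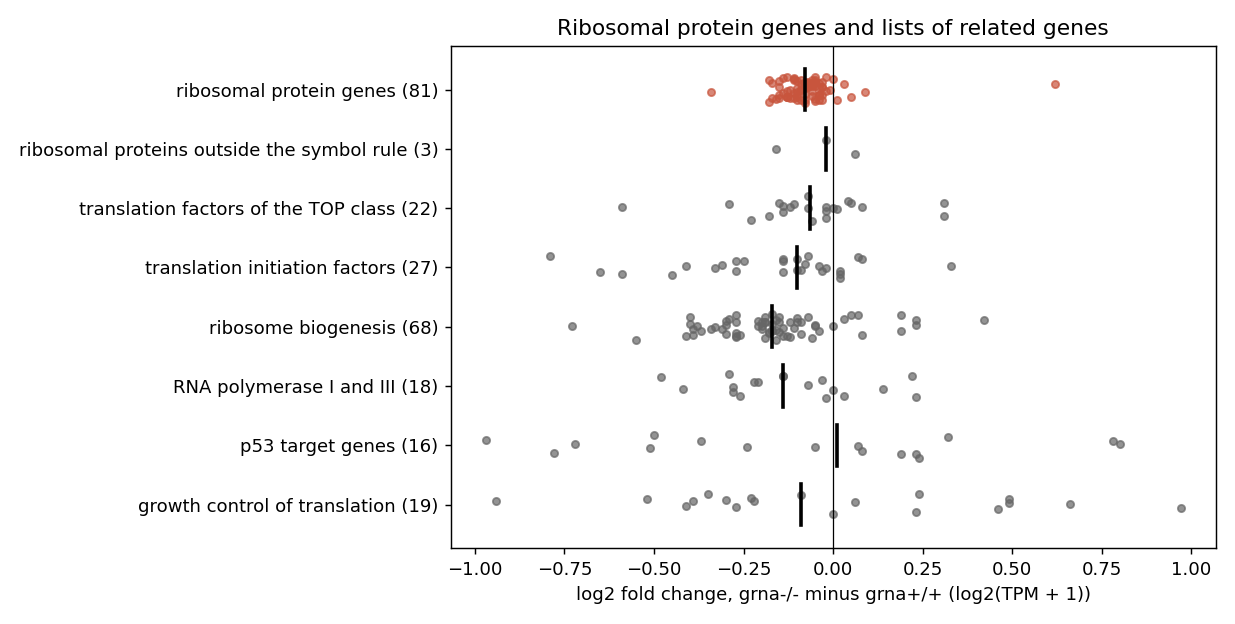
Log2 fold changes, grna-/- minus grna+/+, of the 81 ribosomal protein genes and of the tested genes of 7 related lists, with the number tested in brackets. Points are genes and black bars medians. All but rpl7l1 and rps8b of the ribosomal protein genes lie between -0.18 and 0.09, around a median of -0.08.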

How the data were processed

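The authors deposited 1 table of TPM covering 15292 genes, with columns named by sample title. The submitters' processing notes list featureCounts, Subread, DESeq2 1.26.0, GRCz10 and danRer10, with no role or order. The sources used here do not say how the TPM were made or if counting was stranded. Per the labels' protocols, a stranded messenger RNA kit was used on 50 ng of RNA, with 75 bp single reads. The row named Total names no gene and stayed out of all tests; multiplied by a fixed factor, it was read as the counted reads.

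limma 3.58.1 (R 4.3.3) was fitted to log2(TPM + 1) with a variance trend and genotype as the only term, over the 10750 genes averaging 1 TPM or more. Tests were two-sided, with Benjamini-Hochberg adjustment over all these genes and a threshold of 0.05. A fold change on this scale understates changes of low genes. On simulated data for this comparison over 10750 genes, 96.0% of 2-fold rises were called. Every simulated gene had the same relative spread beyond counting error, unlike the real genes, and no changed gene was of the lowest levels. Changes smaller than 2-fold were not simulated, so the share called says nothing about changes as small as those of the members. Single values per library were compared by exact permutation in scipy 1.17.1. Each replicate is its own fish. A limma p-value rests on variation among fish of a genotype, with each gene's variance drawn toward that of genes of like level.

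Divided by a factor per library, the 6 TPM values of every one of the 11875 genes above 0 throughout stood in whole-number ratios (relative tolerance 1e-09). This held for 0 of 440 genes whose values were moved at random. The reads so recovered came to 99.27% to 99.30% of the counted reads. They gave read numbers, relative lengths and 1 alternative test. Counting error alone is small at 2498 to 78786 reads per library, the range of all members but rpl7l1 and rps8b.

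The sample titles carry numbers 1 to 3 per genotype. After group means were removed, fish of the same number correlated at 0.136, 0.153 and 0.237 over all tested genes. Each lay above the bound of 0.1, and a fit with the numbers as a block was run beside the reported one. Correlations between fish of different numbers were not computed, so whether the numbers pair the fish is not known. The reported fit and the permutation tests leave the numbers out. With same-numbered fish as pairs, the summed level gave a sign-flip p of 0.25, the smallest for 3 pairs. What same-numbered fish share is in no label. Over the ribosomal protein genes the same-number correlations were -0.115, -0.081 and 0.153.

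The members, gene lists and tests were chosen with earlier results of these data known. Named genes are the 4 most and 2 least abundant members of each subunit, the 4 largest changes in each direction, both copies of each pair, and up to 4 genes of each list with the smallest p. Members with a fold change above 0 number fewer than 4 in each subunit. Pairs are symbols that differ by a final l or l with a digit, by a number after a point, or by a against b where no symbol lacks the letter. No coordinates are given, since the gene table is of another assembly. The separate results of some genes are not reported here.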

Additional observations from a re-analysis of the deposited data

How the results depend on the processing

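No ribosomal protein gene was called under 16 of the 17 other settings run. With library weights, 7 were called (22.8% of all tested genes then passed), namely rps8b above 0 and rpl22, rpl32, rpl35, rpl37, rplp1 and rps27.1 below, and 22 genes of the related lists. The weights were 4.808 for grna+/+ replicate 3 and 2.936 for grna-/- replicate 1, against 0.327 to 0.668 for the other libraries. These calls thus lean on 1 fish of each genotype. The cause was not tested. The median log2 fold change of the members, -0.078 as reported, was -0.147 with the median of ratios, -0.044 with limma-voom on recovered reads, -0.007 without globin rows and 0.002 after quantile normalization. It lay between -0.10 and -0.06 when 1 library was left out. The large to small subunit ratio differed by 0.006 (log2), by -0.011 as a mean of log2 levels, and by 0.016 as that mean without rpl7l1 and rps8b (exact permutation p = 0.1). The summed level differed by -0.079 (log2), by -0.150 with the median of ratios, -0.008 without globin rows and -0.007 after quantile normalization. With the replicate block, 0 members and no gene of the related lists were called, the smallest adjusted p of a member was 0.198, 271 genes passed in all against 124, and no call on a member or pair changed. Over all tested genes, 44 were called with no filter, 74 with a filter at a mean of 5 TPM, 76 with no variance trend, 72 with limma-voom, and 16 to 204 when 1 library was left out. Over the other settings, the 31 members named by rule gave 526 log2 fold changes, of which 22 changed sign and 5 passed the test. limma-voom and the mean without 2 genes were chosen after the data were seen. Count tests on the recovered reads were planned and not run, as the deposited unit is TPM, and no member had a symbol such as rps19bp1 to leave out. Depth limits rps8b alone, with 72 reads over the 6 libraries.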
